A study of Mus musculus with 4 samples.

Results

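In 4 cap analysis of gene expression (CAGE) libraries of lesional mouse skin, 416 of 67319 tag clusters were weak, carried no gene name and lay in pairs that point away from each other. A tag cluster is a stretch of the genome where the 5′ ends of capped RNAs pile up. A cluster was taken when it had no gene name in the deposited table and a mean over the 4 libraries above 0 and under 5 CPM (counts scaled to a common library total). It also needed a like cluster on the opposite strand, with the minus strand cluster on the left and a gap of at most 400 bp, and no named cluster within 1000 bp of either. Of 18802 unnamed clusters in that range of levels, 539 lay in such pairs and 416 remained after the condition on named clusters. They formed 252 pairs, and pairs that share a cluster were joined into 174 loci on 20 chromosomes. The clusters were thus chosen by their measured mean level, strand and position, and these describe the choice and are not results. The clusters just inside and just outside the limits had a mean of 4.95 and 5.47 CPM, a gap of 398 and 401 bp, and a distance to a named cluster of 1011 and 995 bp.

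All 4 libraries come from C57BL/6 mice at postnatal day 28 with the genotype Nectin-cre(+);Ikk2FL/FL;Postn-/-, spelled here as the labels give it. Every library thus carries the cre driver, the floxed Ikk2 gene (a kinase of the NF-kappaB pathway) and the loss of Postn (periostin, a matrix protein). There is 1 group, so no genotype, treatment or unaffected skin is compared. The labels do not name the cells in which the cre is active, nor say whether the 4 skins came from separate mice, so p-values refer to the spread of these 4 libraries and part of it may be technical. The 47 genes of an epidermis list, all measured, summed to 26389, 25094, 33148 and 27779 CPM.

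Active enhancers are often transcribed on both strands from a short open stretch of chromatin, and the capped RNAs made there are short, rare and quickly degraded. CAGE reads the first bases of capped RNAs, so a pair of weak clusters that run apart is a pattern used to look for candidate enhancers. Gene promoters and unannotated RNA genes can show the same layout, and capped ends can also arise inside the exons of highly transcribed genes. No chromatin mark or reporter was measured, so the loci are called divergent pairs here.

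The sequences below were chosen to show the kinds of place where the pairs lie. The first 7 are RefSeq windows (GRCm38.p6) around the start of a long noncoding RNA, and each runs from 250 bases before that start to 50 after it. The last 2 are coding sequence from GENCODE M21 transcripts on GRCm38. Each is written 5′ to 3′ on the strand of the named gene, and capitals mark the bases that fall in a member cluster on either strand.
Gm38882 at chr6:117879383-117879682, plus strand: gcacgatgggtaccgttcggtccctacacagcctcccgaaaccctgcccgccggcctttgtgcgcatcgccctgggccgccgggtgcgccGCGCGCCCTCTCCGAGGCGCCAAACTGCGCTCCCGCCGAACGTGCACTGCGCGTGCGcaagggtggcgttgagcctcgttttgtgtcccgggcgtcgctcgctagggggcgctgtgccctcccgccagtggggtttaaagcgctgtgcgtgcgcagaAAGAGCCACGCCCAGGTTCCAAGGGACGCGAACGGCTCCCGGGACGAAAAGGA
Gm19417 at chr4:97868960-97869259, minus strand: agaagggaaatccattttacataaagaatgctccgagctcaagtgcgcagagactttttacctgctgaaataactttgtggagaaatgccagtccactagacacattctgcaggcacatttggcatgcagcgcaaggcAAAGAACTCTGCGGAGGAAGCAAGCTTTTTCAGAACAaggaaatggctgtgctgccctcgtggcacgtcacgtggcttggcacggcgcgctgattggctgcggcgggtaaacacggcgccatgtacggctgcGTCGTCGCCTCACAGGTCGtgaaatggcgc
Gm46609 at chr17:87613494-87613793, minus strand: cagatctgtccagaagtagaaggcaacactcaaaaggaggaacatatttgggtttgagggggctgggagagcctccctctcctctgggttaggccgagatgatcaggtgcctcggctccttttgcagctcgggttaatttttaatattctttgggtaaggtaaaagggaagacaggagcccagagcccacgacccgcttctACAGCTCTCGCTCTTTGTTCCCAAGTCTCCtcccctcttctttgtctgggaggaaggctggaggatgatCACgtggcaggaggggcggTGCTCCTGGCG
Gm34507 at chr17:4908072-4908371, plus strand: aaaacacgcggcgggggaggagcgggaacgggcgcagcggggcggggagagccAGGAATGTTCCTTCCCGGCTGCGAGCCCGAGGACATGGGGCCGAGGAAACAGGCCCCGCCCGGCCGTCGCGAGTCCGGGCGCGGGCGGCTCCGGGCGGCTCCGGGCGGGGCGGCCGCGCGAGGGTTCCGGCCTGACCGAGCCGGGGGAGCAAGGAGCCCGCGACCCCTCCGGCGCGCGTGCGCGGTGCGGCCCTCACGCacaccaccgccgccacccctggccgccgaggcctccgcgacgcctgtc
Gm52148 at chr14:31160485-31160784, plus strand: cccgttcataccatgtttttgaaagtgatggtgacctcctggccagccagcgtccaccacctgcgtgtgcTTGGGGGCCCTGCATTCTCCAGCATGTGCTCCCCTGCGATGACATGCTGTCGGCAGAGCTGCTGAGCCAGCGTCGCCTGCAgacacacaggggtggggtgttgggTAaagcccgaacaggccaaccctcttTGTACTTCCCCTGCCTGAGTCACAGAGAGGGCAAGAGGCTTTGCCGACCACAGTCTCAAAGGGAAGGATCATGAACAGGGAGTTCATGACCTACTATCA
Gm40924 at chr13:39923162-39923461, minus strand: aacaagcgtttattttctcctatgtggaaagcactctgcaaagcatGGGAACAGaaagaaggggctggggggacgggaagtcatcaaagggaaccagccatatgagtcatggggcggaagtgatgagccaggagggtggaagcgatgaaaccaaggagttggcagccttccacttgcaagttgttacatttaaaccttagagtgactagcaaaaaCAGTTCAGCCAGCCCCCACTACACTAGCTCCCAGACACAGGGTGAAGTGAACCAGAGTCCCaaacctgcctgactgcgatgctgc
Gm41603 at chr17:55932148-55932447, minus strand: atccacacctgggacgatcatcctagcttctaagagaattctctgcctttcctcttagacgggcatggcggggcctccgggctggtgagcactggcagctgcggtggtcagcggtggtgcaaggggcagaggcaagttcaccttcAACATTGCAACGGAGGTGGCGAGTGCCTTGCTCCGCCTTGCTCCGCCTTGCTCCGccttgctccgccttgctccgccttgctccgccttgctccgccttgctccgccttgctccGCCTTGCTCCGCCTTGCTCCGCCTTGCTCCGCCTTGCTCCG
Lor coding exon at chr3:92080574-92080715, minus strand: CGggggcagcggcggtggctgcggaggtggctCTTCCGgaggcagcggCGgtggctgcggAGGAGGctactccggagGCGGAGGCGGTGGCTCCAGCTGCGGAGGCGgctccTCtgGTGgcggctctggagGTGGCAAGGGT
Tchh coding exon at chr3:93447631-93447830, plus strand: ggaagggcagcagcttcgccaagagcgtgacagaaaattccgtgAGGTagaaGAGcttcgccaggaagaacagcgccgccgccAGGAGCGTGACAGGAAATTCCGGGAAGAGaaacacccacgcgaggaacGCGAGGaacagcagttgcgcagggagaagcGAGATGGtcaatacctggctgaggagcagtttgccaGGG

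In the Gm38882 and Gm19417 windows the capitals form a block on either side of an unmarked stretch, the plain layout of a divergent pair. In the Gm34507 window all capitals belong to 1 broad plus strand cluster. The Gm41603 window ends in a tandem repeat in which a 10-base unit occurs 13 times, and many of its capitals lie on that repeat, where the placing of short tags is uncertain. The Lor stretch is coding sequence of a glycine-rich repeat protein with 8 small clusters on it. These differences in layout are taken up with the levels below.

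RefSeq windows of this kind held a cluster of 13 of the 174 loci, out of 32851 windows in the table, which lacks chromosome 18. The 13 windows had a median GC content of 57.7% and a median of 19 CpG dinucleotides. All windows had medians of 52.7% and 7, and the 15506 windows of genes with a named cluster had medians of 60.0% and 19. The AP-1 site TGANTCA was present in the Gm52148 and Gm40924 windows (both strands searched), in 7.81% of all windows and in 6.00% of those of genes with a named cluster. The Ets core CCGGAA was present in the Gm34507, Gm2885 and Zfp33b windows, in 14.9% of all windows and in 24.3% of those of genes with a named cluster. The TATA box TATAAA was in 0 of the 13, in 13.6% of all windows and in 8.84% of those of genes with a named cluster. A match describes letters only.

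The loci were small and weak. Their span had a median of 233 bp (71 to 618), the gap within a pair a median of 161 bp (2 to 398), and a cluster a median width of 6 bp. The mean level of a locus, with its clusters summed, had a median of 0.81 CPM and ran from 0.055 to 7.60 CPM. A single cluster had a median of 16 tags over the 4 libraries, and 38 of the 416 had 1 or 2 tags in all. At these depths 1 tag was worth 0.0531 to 0.0567 CPM. Of the loci, 133 were a plain pair of 1 minus and 1 plus strand cluster and 41 held 3 or more clusters. The most clusters were in the Tchh exon, with 10, and in the Lor exon, with 8.

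Most loci were seen in every library. A tag was found in all 4 libraries at 167 of 174 loci, and at least 3 tags in each of the 4 at 144. Of single clusters, 274 of 416 had a tag in all 4 libraries and 25 in 1 library. Summed over the members, the level was 219.8 CPM in library 1, 198.2 in library 2, 233.7 in library 3 and 212.4 in library 4 (216 ± 14.8 CPM, SD, n = 4). Library 2 was the lowest and library 3 the highest. Library 2 also stood apart in a list of 18 gland genes, whose summed level over the 17 measured was 90.9, 39572, 107.3 and 7275 CPM in libraries 1 to 4. After TMM scaling, which divides by a factor for such shifts in composition, the member sums were 221.6, 213.5, 224.3 and 203.7 CPM (215.8 ± 9.28, SD, n = 4). The part of gland RNA in the member levels was not tested.

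By place in GENCODE M21, 83 loci (47.7%) were intergenic, 54 lay in introns and 37 (21.3%) touched an exon. The exon loci had a median level of 1.20 CPM, the intergenic loci 0.762 CPM and the intron loci 0.666 CPM. Coding sequence was overlapped by 22 of the 37 exon loci, and 17 lay wholly inside an exon of a protein-coding transcript. Of the 37 exon loci, 16 had 3 or more clusters, against 10 of 54 in introns and 15 of 83 between genes.

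In these libraries a larger share of the members than of other weak unnamed clusters lay between genes. By cluster, 44.5% of members were intergenic and 21.9% exonic. Of the 14392 other unnamed clusters under 5 CPM with no named cluster within 1000 bp, 20.5% were intergenic and 45.6% exonic. Clusters in convergent pairs, which point at each other under the same limits, were between the 2 sets, with 29.1% intergenic and 38.2% exonic of 220. Of these 220, 43 are also members and the rest are among the 14392, so the convergent set shares clusters with both. By tags, intergenic clusters held 44.9%, 44.0%, 44.6% and 46.7% of member tags in libraries 1 to 4, and 22.7%, 23.3%, 22.4% and 21.7% of the tags in the other weak clusters. The difference was 22.5 percentage points and had 1 direction in 4 of 4 libraries. An exact two-sided sign-flip permutation test over 4 libraries gave p = 0.125, the smallest it can give, and this was the only comparison of its kind tested. The same clusters were summed in every library, so the libraries are not replicates of where clusters lie. Neither the shared direction nor this p bears on the placing, and the shares are a description.

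**Figure D1:**
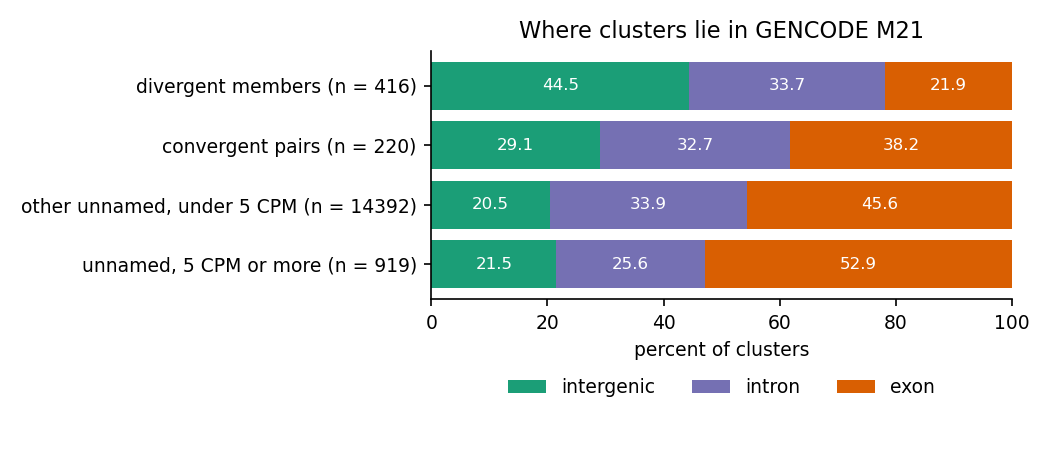
Percent of clusters that lie between genes, in introns or on exons in GENCODE M21, for the 416 members, 220 clusters of convergent pairs, 14392 other unnamed clusters under 5 CPM and 919 unnamed clusters of 5 CPM or more. The set of 14392 has no named cluster within 1000 bp. Of the 220, 43 are also members and the rest are among the 14392. The intergenic part is 44.5% in the members and 20.5% to 29.1% in the other sets.

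With named clusters within 1000 bp barred by the choice, no locus lay within 1000 bp of the start of a protein-coding transcript in GENCODE M21, 18 lay within 2000 bp and 146 within 50000 bp, with a median of 12948 bp. RefSeq starts of any kind were within 500 bp of 15 loci, with those of the protein-coding genes Rap2b and Zfp33b among them, and GENCODE starts within 500 bp of 1. When exon loci, loci with any such start within 500 bp and loci with over 0.8 of directionality were set aside, 89 loci (51.1%) remained, 50 intergenic and 39 intronic. Directionality is the plus minus the minus strand level over their sum. These 89 held 37.4% of the summed member level, and 72 of them had at least 3 tags in every library. Of all 174 loci, 26 also held a cluster of a convergent pair, 10 of them on exons.

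The highest locus lay inside the coding exon of Tchh, which encodes trichohyalin, a structural protein of hair, made in the inner root sheath. This locus, chr3:93447421-93447830, had 12.6, 9.46, 3.63 and 4.74 CPM in libraries 1 to 4 (7.60 ± 4.18, SD, n = 4). Libraries 1 and 2 were both above libraries 3 and 4. Libraries 1 and 2 are labelled 1L and 1R and libraries 3 and 4 are labelled 2L and 2R, so this split follows the code, whose meaning the labels do not give. Its plus strand, the strand of the gene, had 6.97 CPM and its minus strand 0.637 CPM. The named clusters of Tchh itself were at 67.9, 56.4, 25.8 and 30.5 CPM, in the same order of high and low libraries. A list of hair follicle genes summed to 15588, 14020, 7240 and 9456 CPM, again with libraries 1 and 2 above, and its part in the level at this locus was not tested. In bulk tissue, fewer follicle cells and less RNA per cell cannot be told apart.

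**Figure D2:**
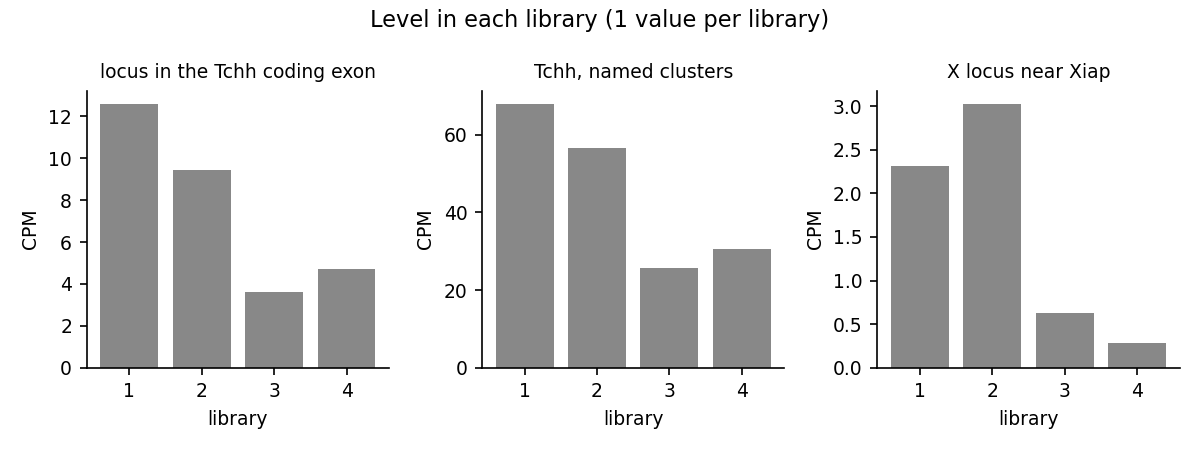
Level in CPM in libraries 1 to 4 at the locus inside the Tchh coding exon, summed over the named clusters of Tchh, and at the X chromosome locus nearest to Xiap; bars are single library values. In all 3 panels libraries 1 and 2 are above libraries 3 and 4.

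The next highest loci were not on exons. An intergenic locus 39119 bp from the start of Ptma (prothymosin alpha, a small acidic nuclear protein), chr1:86487337-86487877, had 4.90, 5.26, 5.05 and 6.36 CPM (5.39 ± 0.661, SD, n = 4). Both strands were seen there in every library, with means of 1.60 CPM on the minus and 3.79 CPM on the plus strand. A locus in an intron of Fabp12, a fatty acid binding protein gene, chr3:10285034-10285358, had 3.36, 5.69, 6.24 and 4.96 CPM, of which 0.109 CPM on average came from the minus strand. Next to Tnrc18, chr5:142821448-142821917 had 5.06, 4.67, 4.82 and 4.85 CPM, the narrowest spread of the 10 highest loci (SD 0.159, n = 4). Its strands had 1.72 CPM (minus) and 3.13 CPM (plus).

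Kdm6b, a histone demethylase gene, had 4 loci in 8399 bp, chr11:69409883-69418281, with 13 clusters. Summed, they had 9.90, 9.51, 13.3 and 9.31 CPM, while the named clusters of Kdm6b were at 1.76, 2.18, 2.50 and 1.84 CPM. Library 3 was the highest for both, but at the named clusters only by 2.50 against 2.18 CPM, and the shared order was not tested. The strongest of the 4, chr11:69410447-69410851 in an intron, had 4.35, 4.14, 6.81 and 3.35 CPM (4.66 ± 1.49, SD, n = 4). The other 3 had means of 2.21, 2.46 and 1.19 CPM. The loci thus had a higher summed level than the named clusters of the gene in all 4 libraries. Much of it was on the gene's own strand, minus: the strongest locus had 4.23 CPM there and 0.429 CPM on the plus strand. The locus of 2.21 CPM had 2.04 and 0.165 CPM. At the loci of 2.46 and 1.19 CPM the plus strand was the higher, with 1.51 and 0.775 CPM.

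The other 5 of the 10 highest loci were between 3.99 and 4.62 CPM. An intergenic locus 76707 bp from Chd2 (a chromatin remodelling enzyme), chr7:73618162-73618745, had 4.84, 4.14, 4.88 and 4.63 CPM. The locus at the start of Gm52148, chr14:31160555-31160815, overlaps an exon of Stab1, a scavenger receptor gene, and had 4.24, 4.52, 5.73 and 3.23 CPM. A locus inside a coding exon of Rin2, chr2:145860552-145860962, had 4.73, 5.21, 3.69 and 3.51 CPM. An X chromosome locus 224089 bp from any named cluster, chrX:37965248-37965626 (nearest Btg1-ps1), had 2.81, 2.50, 6.75 and 4.35 CPM. A locus in an intron of the noncoding gene Lncppara, chr15:85670891-85671508, had 2.92, 3.83, 4.82 and 4.40 CPM. The first of these varied least and the X chromosome locus most, and their libraries overlap with those of the loci next in order.

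**Figure D3:**
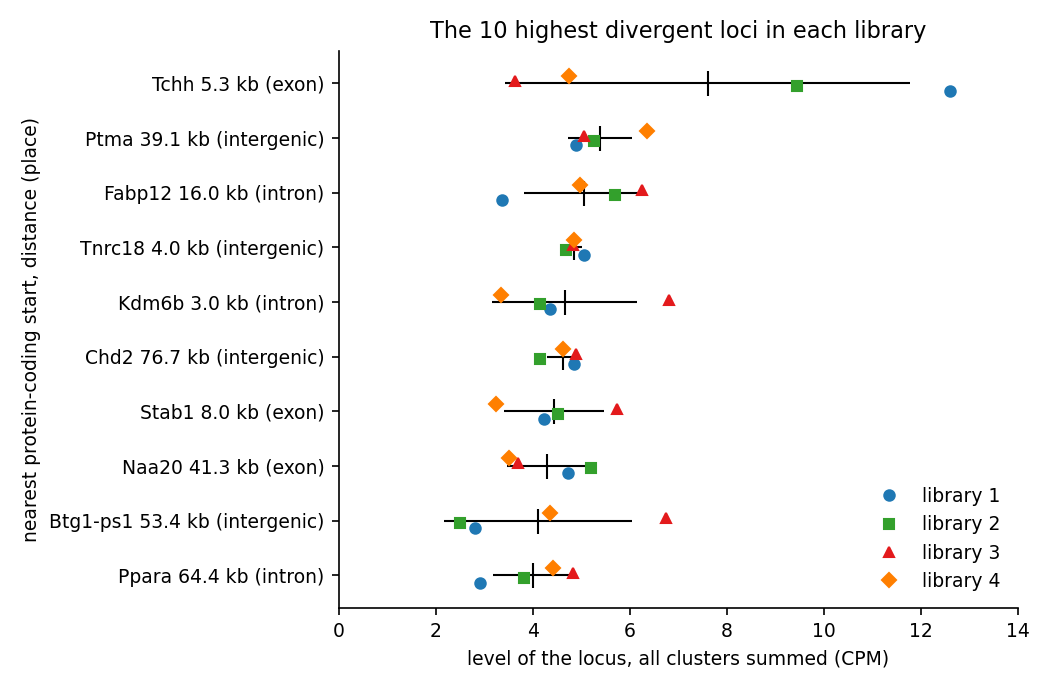
Summed level in CPM of the 10 highest loci in libraries 1 to 4 (points), with the mean (vertical tick) and SD (line, n = 4), named by the nearest protein-coding start, its distance and the place of the locus. The Tchh exon locus has libraries 1 and 2 at 12.6 and 9.46 CPM and libraries 3 and 4 at 3.63 and 4.74 CPM, and the Tnrc18 locus has all 4 between 4.67 and 5.06 CPM.

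Differences between the libraries beyond the general spread were looked for with limma, on log2(CPM + 0.5) after TMM scaling, for features with a mean of at least 0.5 CPM. Of the 174 loci, 111 passed that filter. After Benjamini-Hochberg adjustment over 31778 features, 0 of the 111 passed 0.05, against 0.689% of all features tested. At an unadjusted p under 0.05 there were 3 of 111 loci (2.70%) and 6.67% of all features, and edgeR on the recovered tags also called 0 loci. The 3, named after their values were seen, were the Tchh exon locus (limma adjusted p = 0.181), chrX:42113840-42114148 (0.231) and the X chromosome locus near Btg1-ps1 (0.705). The first X locus, 20266 bp from Xiap (an inhibitor of cell death), had 2.31, 3.03, 0.624 and 0.279 CPM, again split by the codes 1 and 2. Without the filter on low values limma called 2 of 174 loci, against 1.83% of 66027 features. They were the Tchh exon locus (limma adjusted p = 0.000282) and the locus near Xiap (0.00116), so these calls depend on the filter.

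Both strands were used about equally often as the higher one: plus at 86 loci and minus at 88. The ratio of the strands was tested with limma on log2((plus + 0.1)/(minus + 0.1)) in CPM, in divergent pairs whose clusters are each other's nearest. This pair can be a part of a locus. Of 173 member pairs, 100 had a summed mean of at least 0.5 CPM. The limma test with adjustment over 3718 pairs of all kinds called 79 of the 100, 42 with the plus and 37 with the minus strand higher. Of all pairs tested, 92.2% were called, 45.7% with the plus and 46.5% with the minus strand higher. Of 44 pairs of other unnamed clusters among them, 79.5% were called. The same sign was seen in 4 of 4 libraries at 75 of the 79. The fold between strands among the 79 had a median of 4.40 and ran from 1.52 to 27.7 on this scale. Folds depend on the offset of 0.1 CPM: the median was 2.06 with an offset of 0.5 and 7.36 with 0.03. For the 21 pairs not called, the widest 95% interval of the log2 ratio extended 1.56 to either side of its estimate, so equal strands were not shown.

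The strand ratios of members cannot be set against those of other pairs by a test. The limit of 5 CPM on both clusters bounds the ratio in every member pair and was not set for the other pairs. Many of the 44 pairs of other unnamed clusters were nevertheless as weak. As a description, 31% of the 100 member pairs were within 2-fold, against 20.5% of 44 pairs of other unnamed clusters. The share was 15.3% of 1810 pairs of named clusters and 9.01% of 1764 pairs with 1 named cluster. The median absolute log2 ratio of member pairs was 1.83, 1.76, 1.82 and 1.82 in libraries 1 to 4, and that of pairs of named clusters 3.37, 3.43, 3.42 and 3.40. With 1 named cluster it was 4.27, 4.37, 4.26 and 4.32. With the log2 ratio first averaged over libraries, the median was 1.86 in member pairs and 3.04 in the 44 pairs of other unnamed clusters. The median summed level of a pair was 1.17 CPM in the members and 2.84 CPM in the 44 pairs of other unnamed clusters. It was 19.9 CPM with both clusters named and 12.4 CPM with 1 named.

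**Figure D4:**
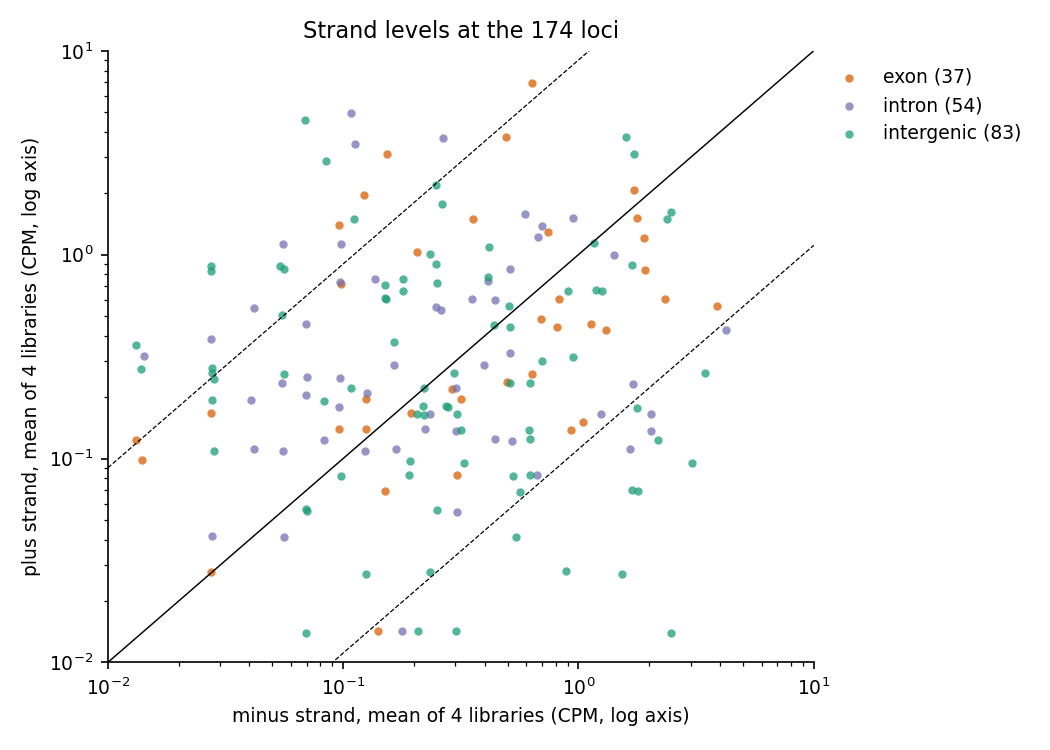
Minus strand against plus strand level (mean of 4 libraries, CPM, log axes) at the 174 loci, coloured by place; the solid line is equal strands and the dashed lines are a directionality of 0.8. Between the dashed lines lie 131 of the 174 loci, and the exon, intron and intergenic loci mix.

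At the most one-sided pairs the weaker strand had few tags. The pair near Chd2 had 4.79, 4.09, 4.82 and 4.52 CPM on the plus strand and 0.055, 0.053, 0.057 and 0.111 CPM on the minus strand in libraries 1 to 4. Its log2 ratio was 4.79 ± 0.19 (SE; limma adjusted p = 8.32e-08). The pair in the Fabp12 intron had 4.95 CPM on the plus and 0.109 CPM on the minus strand. The pair in an intron of Gm13830, nearest to Dynll1 (a dynein light chain), had 3.49 CPM against 0.112 CPM. The pair at the start of Gm34507, 86770 bp from Arid1b (a chromatin remodelling subunit), had 2.88 CPM on the strand of Gm34507 and 0.0845 CPM on the other. The pair in a coding exon of Rasip1 had 3.11 CPM on the plus strand and 0.153 CPM on the minus.

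The 5 most one-sided pairs with the minus strand higher were all intergenic. The pair near Hook2 (a microtubule linker gene), chr8:84986059-84986371, had 2.48, 2.07, 2.78 and 2.56 CPM on the minus strand. On its plus strand there was 1 tag in all 4 libraries against 179, a ratio of 179 with an exact 95% interval of 31.7 to 7109 that covers counting error only. The pair 47846 bp from Srl had 3.36, 2.02, 3.46 and 3.35 CPM on the minus strand and 7 tags in all on the plus strand. The pairs near C77080 and Fgf11 had 1.80 and 2.17 CPM on the minus strand and 5 and 9 tags on the plus. The pair 22220 bp from Ptma, chr1:86504395-86504617, had 1.78 CPM against 5 tags. It lies 16518 bp from the more balanced Ptma locus above.

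The printed examples ranged from less to more one-sided, and none was shown to have equal strands. At Gm38882 the pair had 2.15, 2.18, 3.18 and 2.01 CPM on the minus strand and 1.60, 1.49, 0.851 and 1.90 CPM on the plus strand, a log2 ratio of -0.70 ± 0.30 (SE; limma adjusted p = 0.0577). At Gm19417, 11073 bp from Nfia (a transcription factor gene), they were 0.385, 0.266, 0.340 and 0.780 CPM and 0.440, 0.319, 0.908 and 0.725 CPM (log2 ratio 0.36 ± 0.30, limma adjusted p = 0.269). At Gm46609, 22445 bp from Epcam (an epithelial adhesion gene), the locus had 1.76, 2.18, 1.87 and 1.62 CPM. In the Kdm6b intron the pair had 3.47, 2.98, 4.99 and 2.90 CPM on the minus and 0.385, 0.425, 0.681 and 0.223 CPM on the plus strand (log2 ratio -2.84 ± 0.20, limma adjusted p = 2.67e-06).

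**Figure D5:**
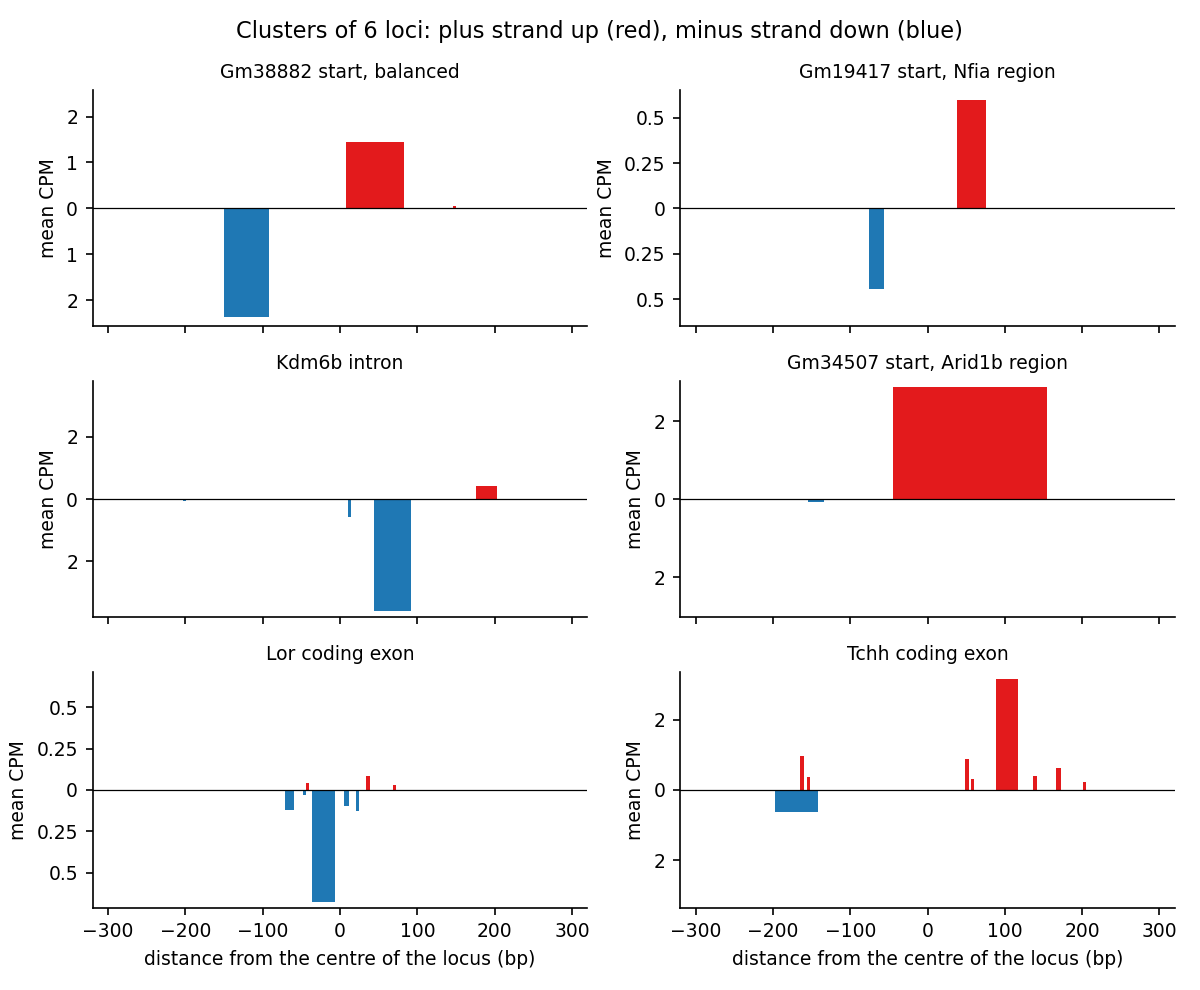
Clusters of 6 loci by distance from the centre of the locus (bp); bar width is the cluster's width (at least 4 bp) and bar height its mean CPM over 4 libraries, plus strand up and minus strand down. The Gm38882 locus has 2.38 CPM on the minus strand and 1.46 CPM in its main plus strand cluster. The Gm19417 locus has 0.443 CPM (minus) and 0.598 CPM (plus). The Gm34507 locus is nearly all plus strand, and the Lor and Tchh exons hold 8 and 10 clusters mixed on both strands.

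Exon loci were compared with the strand of the gene that holds them, for genes on 1 strand. At 28 exon loci the gene's strand was the higher at 16 and the opposite strand at 12. Summed, the gene's strand had 34.9 CPM and the opposite strand 18.3 CPM. Strong loci weigh on these sums: the Tchh locus had 6.97 CPM on the gene's strand and 0.637 CPM opposite. The Stab1 locus had 3.87 and 0.56 CPM, the Rin2 locus 3.79 and 0.49 CPM and the Rasip1 locus 3.11 and 0.153 CPM. The difference between the sums rests largely on these loci and was not tested. At 40 intron loci the split was 20 and 20, with 20.7 CPM and 22.2 CPM.

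At 10 loci the nearest protein-coding start belonged to a gene of the marker lists. These were 9 genes and 5.75% of loci, while listed genes were 0.959% of 21910 protein-coding genes. A share for the other weak unnamed clusters is not given here, and no excess over them was tested. The epidermis list of 47 genes had 6 loci nearest to 5 of its genes and the hair follicle list 2 loci nearest to Tchh and Sox9. The sebaceous list had 1 nearest to Scd1 and the immune list 1 nearest to Cebpb. Nearest need not mean close: the Sox9 locus was 387103 bp from that start, in an intron of 2610035D17Rik. The Cebpb locus was 32460 bp away, in an intron of A530013C23Rik. The gland, muscle, fibroblast, endothelial, adipocyte and melanocyte and Schwann lists had 0. The lists describe cell types of skin and say nothing of what the loci do.

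Of the epidermal neighbours, Lor encodes loricrin, a main protein of the cornified envelope, and the locus in its coding exon had 1.32, 1.01, 1.08 and 1.39 CPM (1.20 ± 0.186, SD, n = 4). There the gene's strand, minus, had 1.05 CPM and the plus strand 0.152 CPM. Lor's named clusters were at 121.6, 100.1, 135.1 and 147.7 CPM. Library 4 was the highest in both, but at the locus only by 25 tags against 24 in library 1. An intron locus 3101 bp from Zfp750 (a regulator of epidermal differentiation), chr11:121516108-121516357, had 1.32, 1.17, 1.08 and 1.06 CPM, with 0.414 CPM on the minus and 0.743 CPM on the plus strand. Sfn, an adaptor protein of differentiating keratinocytes, had a locus on either side. That 3260 bp away on an exon of Zdhhc18 had 1.32, 1.33, 1.25 and 1.06 CPM and that 2461 bp away 0.275, 0.424, 0.284 and 0.557 CPM.

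An intergenic locus 19030 bp from Scd1 (a fatty acid desaturase of sebaceous glands) had 1.16, 0.797, 0.964 and 0.501 CPM, and Scd1 itself 363, 411.9, 844.3 and 594.9 CPM. Library 1 was the highest for the locus and the lowest for Scd1. A locus 2401 bp from Krt14 (a basal keratin) had 0.440, 0.584, 0.680 and 0.446 CPM. A locus on an exon of Dsc1 (a desmosomal cadherin) had 0.220, 0.477, 0.454 and 0.892 CPM. The loci nearest to Cebpb and Sox9 had 0.289 ± 0.0955 and 0.233 ± 0.0213 CPM (SD, n = 4), with 21 and 17 tags in all. Spread at such levels is close to the worth of single tags.

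Of 153 loci whose nearest protein-coding gene had a named cluster, 54 (35.3%) had a gene over 100 CPM, and these were 47 genes. Counted by cluster, 35.4% of 364 members and 31.5% of 12984 other weak unnamed clusters lay next to such a gene. Counted by distinct gene, they were 34.6% of 136 nearest genes for the members and 19.1% of 5145 for the other clusters, a difference that was not tested. The sets differ widely in size, on which a share by distinct gene can depend. Among genes over 1000 CPM, Perp (a membrane protein of desmosomes) had 3 loci and Sfn had 2. The 3 Perp loci, chr10:18872859-18878423, summed to 1.32, 1.28, 1.70 and 1.11 CPM, while Perp had 1373, 1314, 1506 and 1394 CPM. Library 3 was the highest for both, but at the loci only by a few tags, and the shared order was not tested.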

How the data were processed

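CAGE tag clusters of 4 libraries were analysed. The authors deposited CPM per cluster, and the submitters' processing notes name BWA, HISAT2 and mm9. The coordinates nevertheless fit GRCm38: 99.953% of named entries lay within 1000 bp of their gene in GENCODE M21, which was used throughout. Starts in the deposited table count from 0 and are given here from 1. Whole tags were recovered from the deposited CPM for 100.0% of values (tolerance 0.02 tags), at 17630119 to 18823630 tags a library.

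Members and gene lists were chosen with earlier results of these data known. Loci that share clusters were joined and their CPM summed. Named loci are the 10 highest, the 5 called pairs with the largest strand ratio each way and the 10 highest next to a listed gene. Tests used limma 3.58.1, with edgeR 4.0.16 on recovered tags as an alternative, in R 4.3.3, both tested on simulated data. The spread test compared each feature's variance over libraries with a trended prior, one-sided. Python 3.11.15 made the tables. Alternatives covered pseudocounts, filters, scaling, rule limits and leaving out each library. The exact interval for the tags near Hook2 covers counting error only. The interval of the log2 strand ratio comes from the limma standard error over libraries.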

Additional observations from a re-analysis of the deposited data

Results flagged for a closer look

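Of 29 sets of 4 library values looked at, 3 had 1 library far from the others by Dixon's ratio at its 95% limit, and chance marks about 1 in 20. The one-sided locus 22220 bp from Ptma had 2.31 CPM in library 1 and 1.86, 1.87 and 1.78 CPM in libraries 2 to 4. The locus near Srl had 2.18 CPM in library 2 and 3.52, 3.46 and 3.40 CPM in libraries 1, 3 and 4. The intron locus nearest to Sox9 had 0.265 CPM in library 2 and 0.220, 0.226 and 0.222 CPM in the others, which is 5 tags against 4 in each.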

How the results depend on the processing

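The number of members moved with the distances and the order. With a gap of at most 200 bp there were 267 clusters, and with no named cluster within 5000 bp 267 clusters in 113 loci. In convergent order the same limits gave 220 clusters in 82 loci. Leaving out 1 library at a time gave 397 to 411 clusters and 166 to 172 loci.

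For the spread between libraries, limma called 2 of 174 loci without the filter on low values, against 1.83% of all features. The other 10 alternatives called 0 loci, against 0.218% to 0.794% of all features, and 0 to 0 when 1 library was left out. For the strand ratio, 43 of 54 member pairs were called at a summed mean of at least 1 CPM, against 94.5% of all pairs. The exact sign-flip permutation test called 0, since 4 libraries cannot give a p below 0.125. Without the filter on low values 100 of 173 member pairs were called, against 85.3% of all pairs. Leaving out 1 library gave 68 to 78 calls of 98 to 103 member pairs, against 90.6% to 91.2% of all pairs. Offsets of 0.5 and 0.03 CPM gave 84 and 76 of 100, against 93.8% and 91.4%. With edgeR 82 of 100 were called, 78 of them among the 79, against 93.3% of all pairs. The 10 named pairs kept direction and call in all 90 refits that gave them a value. The log2 ratio near Chd2, 4.79 with an offset of 0.1 CPM, was 3.15 with 0.5, 5.57 with 0.03 and 5.91 with edgeR. No paired analysis was possible because all 4 libraries form 1 group and the meaning of the codes 1L, 1R, 2L and 2R is not given in the labels. The spread test does not use the codes.

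With 17630119 to 18823630 tags a library, 3 tags are 0.159 to 0.170 CPM, so library differences at the weakest loci were not detectable at this depth.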

Other observations

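Values at loci next to 6 further genes active in these libraries, a selection made after the values were seen and not a full list, were as follows. The locus 14666 bp from Pkp1 (plakophilin, a desmosomal plaque protein) had 0.220, 0.372, 0.397 and 0.111 CPM, while Pkp1 had 779 ± 73.5 CPM (SD, n = 4). The locus 1410 bp from Gjb2 (a connexin of gap junctions) had 0.330, 0.053, 0.397 and 0.445 CPM, and Gjb2 404.1 ± 42.2 CPM. The loci 1923 and 3689 bp from Gsdma (a gasdermin) had means of 0.910 and 0.0968 CPM. Egr3, an early growth response factor, had loci 2160 and 45083 bp away with means of 0.471 and 0.275 CPM. Krt78, a keratin gene at 25.6 ± 5.36 CPM, had loci 12706 and 19451 bp away with means of 0.459 and 0.304 CPM. The locus 15714 bp from Asprv1 (a protease of the stratum granulosum) had 0.055, 0.053, 0.170 and 0.223 CPM.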
